A study of Mus musculus with 6 samples.

Results

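The 41 genes described here encode the machinery that copies DNA in S phase and the enzymes that keep it supplied with nucleotides. They were taken as a list of gene symbols, chosen by function, and all 41 were found among the 12101 genes of the deposited table and among the 12088 genes tested. RNA was sequenced from megakaryocyte-erythroid progenitors (MEPs), bone marrow cells whose progeny are erythrocytes and the platelet-shedding megakaryocytes. They came from adult mice that carry the reverse tetracycline transactivator at *Rosa26* and a *Nanog* cDNA under a tetO promoter at *Col1a1*, on a strain labelled CD-1. The 3 dox-treated replicates came from mice given doxycycline (dox) in their drinking water for 5 days, and the 3 untreated replicates from mice of the same genotype without dox. Wild-type mice given dox were not analysed here, so a response to dox itself cannot be told apart from a response to *Nanog*. The transactivator is expressed in many tissues, so the MEPs were not the only cells of the animal exposed to *Nanog*. The sources used here do not state whether a replicate pooled several animals.

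Before S phase, the origin recognition complex, CDC6 and CDT1 load the MCM2-7 helicase onto DNA at origins, a step called licensing. At the start of S phase, CDC45, the GINS complex and MCM10 turn the loaded helicase into an active one, and primase and the DNA polymerases copy the unwound strands with the sliding clamp PCNA. Deoxynucleotides come mainly from ribonucleotide reductase and from the thymidylate enzymes. Many of these genes are targets of E2F transcription factors and are expressed mostly in dividing cells. Early erythroid progenitors divide quickly, and megakaryocytes copy their DNA repeatedly without dividing. A library made from many cells gives 1 value per gene, so fewer cells in S phase and less RNA per cell cannot be told apart.

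Promoter sequences of 8 members are shown first, because E2F sites are the sequence feature that this group of genes is best known for. RefSeq promoter sequences (GRCm38.p6) were at hand for 34 of the 41 members, all but *Mcm4*, *Gins1*, *Gins2*, *Gins4*, *Pole*, *Prim2* and *Rfc2*. The E2F-type words TTTCCCGC, TTTCGCGC, TTTGGCGC and TTTGCCGC were searched on both strands in the 250 bases before the start. At least 1 of them was found in 8 of the 34 members (23.5%), against 2.16% of all 27025 genes with a promoter sequence, 4.09% of the 8284 genes that were also tested, and 2 of 27 genes of mitosis (7.41%). CCAAT was found in 22 of the 34 members (64.7%), against 41.5% of the tested genes. TTTGAA or TTTAAA, the letters of the cell cycle homology region, were found in 8 of the 34 members (23.5%), against 20.5% of the tested genes and 48.1% of the mitosis genes. The 8 members with an E2F-type word were *Mcm5*, *Mcm6*, *Mcm7*, *Cdc6*, *Orc1*, *Gins3*, *Rfc3* and *Pola1*. The 160 bases before the start are printed for 6 of them and for *Cdt1* and *Tk1*, which held none in the 250 bases, because *Cdt1* was the only member that passed the test described below and *Tk1* the member with the highest fold change. Each runs 5′ to 3′ on the gene's strand, and capitals mark the E2F-type words.
*Mcm5*, chr8:75109349-75109508, plus strand: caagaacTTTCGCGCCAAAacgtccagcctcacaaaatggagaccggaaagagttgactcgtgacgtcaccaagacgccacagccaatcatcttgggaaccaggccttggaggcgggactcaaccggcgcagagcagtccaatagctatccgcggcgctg
*Mcm6*, chr1:128359706-128359865, minus strand: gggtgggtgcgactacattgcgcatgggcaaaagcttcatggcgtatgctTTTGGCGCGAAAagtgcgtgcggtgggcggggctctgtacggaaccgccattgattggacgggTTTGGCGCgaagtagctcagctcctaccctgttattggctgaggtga
*Cdc6*, chr11:98907991-98908150, plus strand: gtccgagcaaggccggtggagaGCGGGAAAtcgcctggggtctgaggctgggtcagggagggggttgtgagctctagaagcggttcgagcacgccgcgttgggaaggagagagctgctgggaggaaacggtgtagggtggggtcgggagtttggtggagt
*Orc1*, chr4:108579294-108579453, plus strand: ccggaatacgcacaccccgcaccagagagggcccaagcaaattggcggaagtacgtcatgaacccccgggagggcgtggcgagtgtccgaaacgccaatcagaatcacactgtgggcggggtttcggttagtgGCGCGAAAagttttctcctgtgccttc
*Pola1*, chrX:93632156-93632315, minus strand: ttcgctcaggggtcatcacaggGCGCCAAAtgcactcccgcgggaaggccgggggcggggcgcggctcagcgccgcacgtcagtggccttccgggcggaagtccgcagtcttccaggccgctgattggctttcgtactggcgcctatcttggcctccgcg
*Gins3*, chr8:95633399-95633558, plus strand: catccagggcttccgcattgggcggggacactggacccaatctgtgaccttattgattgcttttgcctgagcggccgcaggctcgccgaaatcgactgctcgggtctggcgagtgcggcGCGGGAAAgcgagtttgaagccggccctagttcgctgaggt
*Cdt1*, chr8:122567855-122568014, plus strand: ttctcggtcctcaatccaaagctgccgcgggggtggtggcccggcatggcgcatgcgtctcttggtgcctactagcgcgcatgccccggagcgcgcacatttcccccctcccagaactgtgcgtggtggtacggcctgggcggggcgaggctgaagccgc
*Tk1*, chr11:117826015-117826174, minus strand: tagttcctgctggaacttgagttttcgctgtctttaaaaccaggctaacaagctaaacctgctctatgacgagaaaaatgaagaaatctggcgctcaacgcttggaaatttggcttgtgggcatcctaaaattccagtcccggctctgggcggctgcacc
In *Mcm6* and *Mcm5* a pair of words on opposite strands overlap and read as 1 run of capitals. *Mcm6* held 3 words, which began 110, 106 and 47 bases before the start. In *Orc1* the word began 27 bases and in *Gins3* 41 bases before the start. A match is a description of letters, not a site shown to be bound.

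The 6 libraries held between 11264803 and 16153600 reads on listed genes, and the members had between 231 and 11486 reads each in any library. Values are CPM, in which the reads of a gene are scaled to a normalized library size of 1000000. *Nanog* was at 1256, 1460 and 1024 CPM in dox-treated replicates 1, 2 and 3 and at 0.739, 0.998 and 0.136 CPM in the untreated replicates, which matches the labels. The MEP genes *Gata1*, *Klf1*, *Epor* and *Kit* were present in every library, with *Klf1* between 191 and 385 CPM. *Cd34*, a gene whose product the sort selected against, was at 172, 129 and 62.8 CPM with dox and at 57.7, 23.8 and 48.2 CPM without. *Fcgr3*, which encodes the other marker selected against, was at 11.3, 10.2 and 6.13 CPM with dox and at 28.0, 11.4 and 19.1 CPM without. Dox-treated replicate 3 stood apart from dox-treated replicates 1 and 2. On the first principal component of all tested genes it lay at -14.8, between the other dox-treated libraries at -57.5 and -56.3 and the untreated libraries at 35.1 to 54.2. On the second component it lay at -51.7, apart from all other libraries, which were between -4.83 and 20.2. Results are therefore given with and without dox-treated replicate 3.

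Most replication genes were at a lower level in dox-treated replicates 1 and 2 than in any untreated library, while dox-treated replicate 3 lay near the untreated libraries. In 38 of the 41 members (92.7%) both dox-treated replicates 1 and 2 were below all 3 untreated libraries, against 35.5% of all genes tested. Dox-treated replicate 3 was above both of the others in 40 of the 41 members (97.6%, against 44.0% of all genes), and *Pold2* was the exception. It was above all untreated libraries in 14 members (34.1%, against 35.3% of all genes), within their range in 11 (26.8%, against 30.4%) and below all of them in 16 (39.0%, against 34.3%), shares near those of all genes. The median member was at 71.2% of its untreated level without dox-treated replicate 3, and at 98.5% in dox-treated replicate 3 itself.

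Over the 3 dox-treated libraries, 39 of the 41 members (95.1%) had a lower mean log2 value than in the untreated libraries, against 52.7% of all genes tested. Their median log2 fold change was -0.32, against -0.03 for all genes. The spread among the dox-treated libraries was nonetheless large beside these differences. In limma on the deposited log2 values, with Benjamini-Hochberg adjustment over all 12088 genes and a threshold of 0.05, 1 member (2.44%) was lower with dox, against 3.18% of all genes. No member was higher, against 4.59% of all genes. At an unadjusted p under 0.05, 13 members (31.7%) were lower, against 13.6% of all genes, and 0 were higher, against 15.6%. In 16 members (39.0%) every dox-treated library was below every untreated library, against 18.2% of all genes. In 0 members was every dox-treated library above, against 17.7%. Without dox-treated replicate 3 the same test put 29 members (70.7%) lower with dox, against 14.0% of all genes, and with limma's array quality weights, which gave that library a weight of 0.163, it put 32 (78.0%) lower, against 21.5%. Leaving out any other single library left 0 members past the threshold, and 0.298% to 1.04% of all genes lower.

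**Figure D1:**
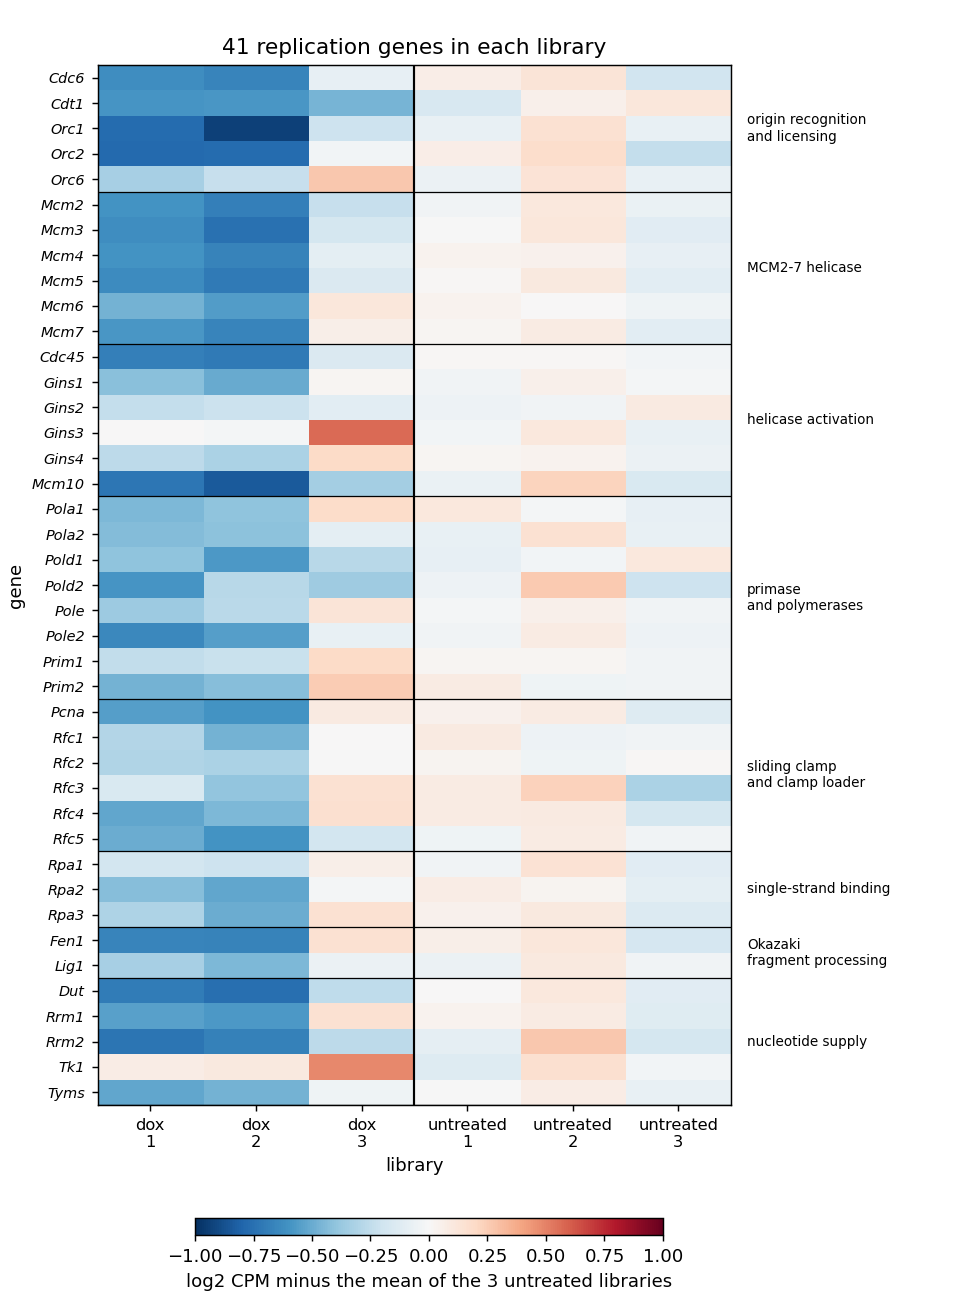
Level of each of the 41 members (rows, grouped by role) in each of the 6 libraries (columns), as log2 CPM minus the mean of the 3 untreated libraries. Blue is lower and red is higher. Dox-treated replicates 1 and 2 are blue in nearly all rows, and dox-treated replicate 3 is close to the untreated columns except for genes such as *Cdt1*, *Mcm10* and *Pold2*.

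Among the licensing genes, *Cdt1*, which brings the helicase to the origin, was the member that passed the test. *Cdt1* (ENSMUSG00000006585, chr8:125091915-125097028 of NCBIM37, plus strand) was at 135, 136 and 147 CPM in the dox-treated replicates and at 182, 211 and 220 CPM in the untreated replicates. All 3 dox-treated libraries were below the untreated ones, dox-treated replicate 3 included. The dox-treated mean was 139 ± 6.69 CPM (SD, n = 3), which is 68.3% of the untreated mean of 204 ± 20.0 CPM (SD, n = 3). *Cdt1* had a log2 fold change of -0.55 (SE 0.12, adjusted p = 0.047, limma), and an exact two-sided permutation test gave p = 0.1, the smallest that 3 against 3 libraries can give. The adjusted p was close to the threshold. It was 0.026 without dox-treated replicate 3, 0.16 and 0.17 without dox-treated replicates 1 and 2, and 0.079, 0.14 and 0.15 without untreated replicates 1, 2 and 3.

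*Orc1*, the ATPase subunit of the origin recognition complex that comes and goes with the cell cycle (ENSMUSG00000028587, chr4:108252028-108288633 of NCBIM37), had the lowest fold change of all members. It was at 31.4, 28.0 and 46.4 CPM with dox and at 50.8, 59.3 and 50.8 CPM without. The groups did not overlap, but dox-treated replicate 3 was nearer to the untreated libraries than to its own group, and the log2 fold change of -0.64 (SE 0.21) had an adjusted p of 0.11 in limma. Without that library it was -0.85, with an adjusted p of 0.015 in limma. *Orc2*, a core subunit of the same complex, was at 109, 110 and 184 CPM with dox and at 196, 211 and 159 CPM without. *Cdc6*, the loading ATPase, was at 142, 139 and 207 CPM with dox and at 229, 240 and 192 CPM without. For both, dox-treated replicate 3 lay within the untreated range and the other dox-treated libraries well below it. *Orc6* differed less, at 49.4, 53.0 and 74.7 CPM with dox against 59.0 to 68.0 CPM without, and dox-treated replicate 3 was its highest library. Of these 5 licensing genes, *Cdt1*, *Orc1*, *Orc2* and *Cdc6* passed the test without dox-treated replicate 3 and *Orc6* did not.

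The 6 genes of the MCM2-7 helicase, the ring that unwinds DNA at the fork, had dox-treated replicates 1 and 2 below every untreated library, and differed in the place of dox-treated replicate 3. *Mcm2* (chr6:88833469-88848774 of NCBIM37) was at 366, 345 and 473 CPM with dox and at 541, 595 and 528 CPM without. Its log2 fold change was -0.50 (SE 0.15, adjusted p = 0.093, limma). *Mcm5* (chr8:77633427-77652338) was at 383, 363 and 536 CPM with dox and at 597, 634 and 551 CPM without. *Mcm3* was at 302, 278 and 412 CPM with dox and at 464, 505 and 432 CPM without. In these genes dox-treated replicate 3 was below the untreated libraries too, although by a small margin. *Mcm4* showed the same order with a smaller gap, with dox-treated replicate 3 at 367 CPM against a lowest untreated value of 371 CPM. *Mcm6* (chr1:130228168-130256233) was at 486, 458 and 729 CPM with dox and at 692, 674 and 655 CPM without. *Mcm7* was at 439, 416 and 683 CPM with dox and at 665, 695 and 611 CPM without. For *Mcm6* dox-treated replicate 3 was the highest of all 6 libraries, and for *Mcm7* it fell within the untreated range. Log2 fold changes of the 6 genes ranged from -0.52 for *Mcm3* to -0.30 for *Mcm6*, and none passed the threshold over all 6 libraries. Without dox-treated replicate 3 they ranged from -0.69 to -0.51 and all 6 passed it, with adjusted p between 0.016 and 0.020 in limma.

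Of the genes that activate the helicase, *Mcm10* and *Cdc45* were the lowest relative to untreated. *Mcm10*, which binds the helicase and is needed for origin firing (chr2:4910760-4933837 of NCBIM37), was at 95.4, 88.2 and 125 CPM with dox and at 150, 184 and 142 CPM without. The groups did not overlap and the mean with dox was 64.9% of the untreated mean, the lowest share among the members. Its log2 fold change was -0.63 (SE 0.18, adjusted p = 0.084, limma). *Cdc45*, a stable partner of the active helicase, was at 54.3, 53.3 and 78.8 CPM with dox. The untreated libraries lay close together at 87.8, 87.8 and 85.5 CPM, so that without dox-treated replicate 3 *Cdc45* had the smallest adjusted p of the members, 0.0099 in limma, at a log2 fold change of -0.69. *Gins1*, *Mcm10* and *Cdc45* passed the test without that library. The GINS complex, the other partner, is built from 1 copy each of the products of *Gins1*, *Gins2*, *Gins3* and *Gins4*, and *Gins3* departed from the other genes of the complex. *Gins1* was at 31.8, 29.9 and 43.1 CPM with dox and between 41.5 and 44.0 CPM without. *Gins4* was at 51.3, 49.2 and 70.2 CPM with dox and between 59.1 and 62.8 CPM without. In *Gins1*, *Gins2* and *Gins4* dox-treated replicates 1 and 2 were below every untreated library. *Gins3* was at 22.3, 21.9 and 33.0 CPM with dox and between 21.1 and 23.8 CPM without. Dox-treated replicates 1 and 2 thus matched the untreated libraries for *Gins3*, and dox-treated replicate 3 was above all of them. *Gins3* was 1 of the 2 members with a higher mean with dox, at a log2 fold change of 0.19 (SE 0.19), which was -0.0069 without dox-treated replicate 3. *Gins2* had log2 fold changes of -0.19 with and -0.23 without that library. It shares 67.3% of its exon bases with *Gse1* on the opposite strand, and whether the counting used strand is not stated, so its reads are uncertain.

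All 8 genes of primase and the polymerases had dox-treated replicates 1 and 2 below every untreated library, and 4 of them, *Pola2*, *Pold1*, *Pold2* and *Pole2*, had all 3 dox-treated libraries below. *Pold1*, the catalytic subunit of the lagging-strand polymerase delta, was at 190, 169 and 208 CPM with dox and at 238, 247 and 271 CPM without. Its log2 fold change was -0.42 (SE 0.12, adjusted p = 0.089, limma), which is 75.0% of the untreated mean. *Pold2*, its regulatory subunit, was at 76.7, 94.8 and 89.9 CPM with dox and at 111, 138 and 99.7 CPM without. Here dox-treated replicate 3 lay between the other two. *Pole2*, a subunit of the leading-strand polymerase epsilon, was at 28.8, 30.6 and 42.8 CPM with dox and between 43.4 and 47.7 CPM without. For the polymerase alpha and primase genes *Pola1*, *Prim1* and *Prim2*, and for *Pole*, dox-treated replicate 3 was instead above every untreated library. *Prim2* illustrates this, at 58.4, 60.1 and 96.4 CPM with dox and between 78.5 and 85.4 CPM without. Log2 fold changes of the 8 genes ranged from -0.42 to -0.09. Without dox-treated replicate 3, 5 of the 8 passed the threshold, and *Pold2*, *Pole* and *Prim1* did not, with *Pole* at an adjusted p of 0.050 in limma.

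The sliding clamp *Pcna*, the most abundant member per kb of exon, had the split pattern in full (chr2:132074898-132079050 of NCBIM37). It was at 401, 388 and 625 CPM with dox and at 605, 622 and 537 CPM without. Its log2 fold change was -0.35 (SE 0.21, adjusted p = 0.31, limma), and -0.57 without dox-treated replicate 3, with an adjusted p of 0.022 in limma. *Pcna-ps2*, a pseudogene of *Pcna* that is also listed, was at 78.4, 76.5 and 121 CPM with dox and at 115, 109 and 96.4 CPM without, and reads can be split between such copies. The clamp loader, which opens PCNA and closes it around DNA, is encoded by *Rfc1* to *Rfc5*. *Rfc5* was the only loader gene with all dox-treated libraries below the untreated ones, at 102, 94.7 and 126 CPM against 139 to 151 CPM. *Rfc3* was the only gene of the clamp and loader in which dox-treated replicates 1 and 2 were not both below the untreated libraries. Its untreated values of 54.6, 60.3 and 41.3 CPM spread more widely than those of its partners. The 5 loader genes had log2 fold changes between -0.42 for *Rfc5* and -0.13 for *Rfc3*, and *Rfc2*, *Rfc4* and *Rfc5* passed the test without dox-treated replicate 3.

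Replication protein A, which coats single-stranded DNA at the fork, is encoded by *Rpa1*, *Rpa2* and *Rpa3*. *Rpa1* was at 231, 228 and 274 CPM with dox and at 257, 291 and 243 CPM without, a log2 fold change of -0.11 (SE 0.13). *Rpa2* and *Rpa3* had log2 fold changes of -0.32 and -0.22, and *Rpa2* alone of the 3 passed the test without dox-treated replicate 3. *Fen1*, the nuclease that trims Okazaki fragment flaps, was at 158, 157 and 277 CPM with dox and at 260, 271 and 222 CPM without. The distance of dox-treated replicate 3 from the other dox-treated libraries was therefore larger than that between the groups. *Fen1* shares 78.8% of its exon bases with the noncoding gene *Gm10143* on the opposite strand, which was at or below 7.23 CPM in every library. *Lig1*, the ligase that joins the fragments, was at 239, 220 and 289 CPM with dox and between 288 and 322 CPM without.

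The 5 genes of nucleotide supply differed among themselves, and 4 of them had lower means with dox. *Dut*, the dUTPase that keeps uracil out of DNA (chr2:125072926-125084344 of NCBIM37), was at 338, 327 and 460 CPM with dox and at 552, 592 and 509 CPM without. The groups did not overlap, and the log2 fold change was -0.57 (SE 0.16, adjusted p = 0.087, limma). *Rrm2*, the ribonucleotide reductase subunit made in S phase, was at 203, 212 and 281 CPM with dox and at 317, 407 and 298 CPM without, which is 68.1% of the untreated mean. *Rrm1*, the partner subunit with a more stable protein, had dox-treated replicate 3 as its highest library, at 457, 447 and 737 CPM with dox and between 612 and 703 CPM without. *Tyms*, thymidylate synthase, was at 80.5, 83.2 and 112 CPM with dox and between 110 and 121 CPM without. *Tk1*, the salvage thymidine kinase of S phase (chr11:117676840-117687406), was at 143, 145 and 189 CPM with dox and at 124, 151 and 133 CPM without, a log2 fold change of 0.22 (SE 0.16, adjusted p = 0.39, limma). Dox-treated replicates 1 and 2 lay inside the untreated range for *Tk1*. *Dut*, *Rrm1*, *Rrm2* and *Tyms* passed the test without dox-treated replicate 3, and *Tk1* did not, at a log2 fold change of 0.09.

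Divided by exon length, the untreated levels of the members spanned from 9.22 ± 0.594 CPM per kb (SD, n = 3) for *Gins3* to 245 ± 18.8 CPM per kb (SD, n = 3) for *Pcna*. *Dut* followed at 229 ± 17.4 CPM per kb, and *Mcm5*, *Rrm1* and *Mcm2* at 170 ± 11.9, 167 ± 11.9 and 165 ± 10.5 CPM per kb, which differed by less than their SDs. *Mcm3*, *Mcm6* and *Mcm7* lay at 156 ± 12.2, 154 ± 4.21 and 149 ± 9.69 CPM per kb. *Mcm4*, at 110 ± 5.50 CPM per kb, was the lowest of the 6 genes of the MCM2-7 helicase, below each of the others by more than their SDs. The genes of replication protein A lay at 47.3 ± 4.41, 45.5 ± 2.75 and 45.7 ± 3.82 CPM per kb for *Rpa1*, *Rpa2* and *Rpa3*. Clamp loader genes were not, with *Rfc2* at 102 ± 2.75 and *Rfc3* at 14.4 ± 2.71 CPM per kb. Exon length here is that of all annotated exons of a gene, so a gene with a long exon that MEPs do not use is understated.

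**Figure D2:**
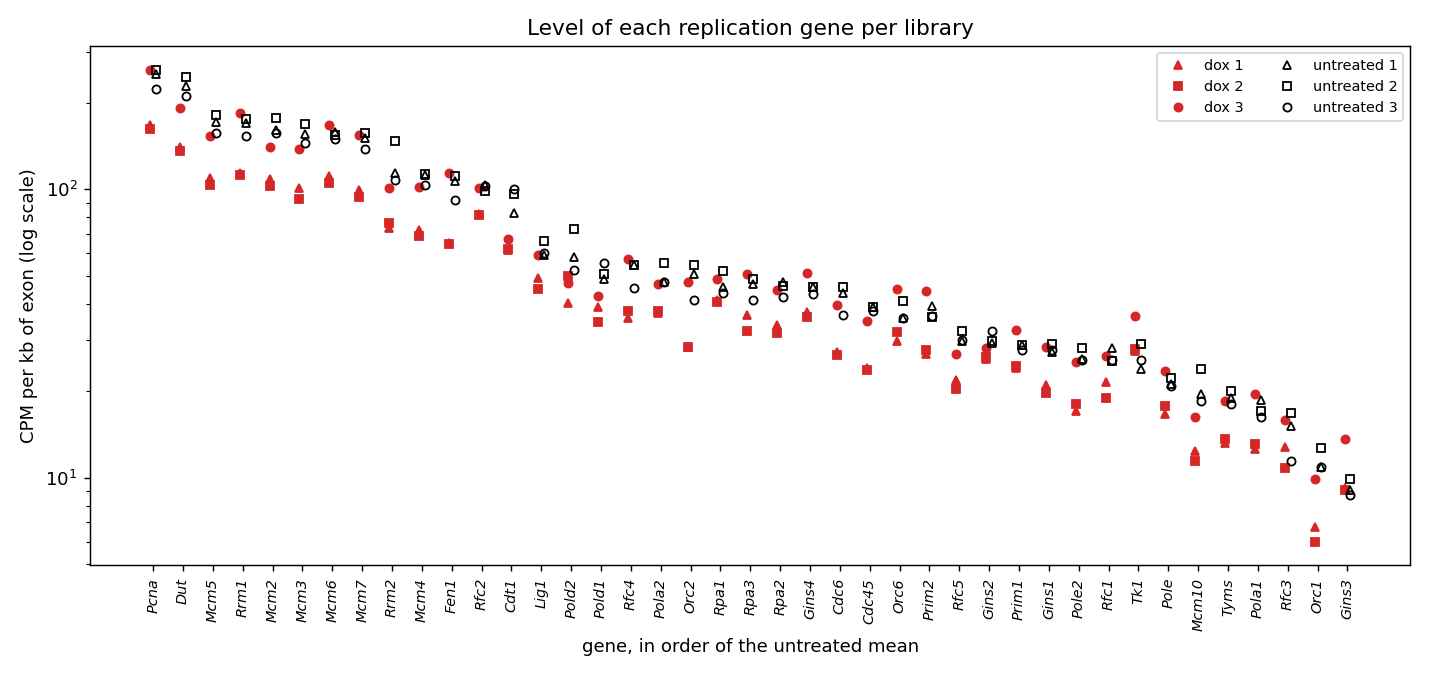
Level of each member in each library, as CPM per kb of exon on a log axis, in order of the untreated mean. Filled red symbols are dox-treated and open black symbols untreated libraries. Red triangles and squares (dox-treated replicates 1 and 2) sit below the open symbols in 38 members, while red circles (replicate 3) sit near them.

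With the fold changes set side by side by role, the median log2 fold change was -0.52 for licensing, -0.48 for MCM2-7, -0.34 for nucleotide supply and for Okazaki fragment processing, -0.27 for primase and polymerases, -0.26 for the clamp and its loader, -0.24 for helicase activation and -0.22 for replication protein A. Without dox-treated replicate 3 these medians were -0.64, -0.64, -0.56 (nucleotide supply), -0.53 (Okazaki fragment processing), -0.43, -0.43, -0.38 and -0.40, so that helicase activation took the place nearest to 0. Differences between roles were not tested. The members with an E2F-type word in the promoter included *Orc1*, with the lowest fold change, and *Gins3*, with the second highest, and *Cdt1* had no such word before its start. Scaling by summed reads in place of the normalized library sizes moved every gene alike, by 0.11 on the log2 scale. The members' median relative to all genes was therefore bound to stay the same, at -0.30. It was -0.19 relative to all genes under quantile normalization. Under that scaling *Orc6* and *Prim1*, and under quantile normalization *Rpa1*, had fold changes on the other side of 0, and under both scalings 0 members passed the threshold and *Cdt1* had adjusted p of 0.065 and 0.064 in limma.

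**Figure D3:**
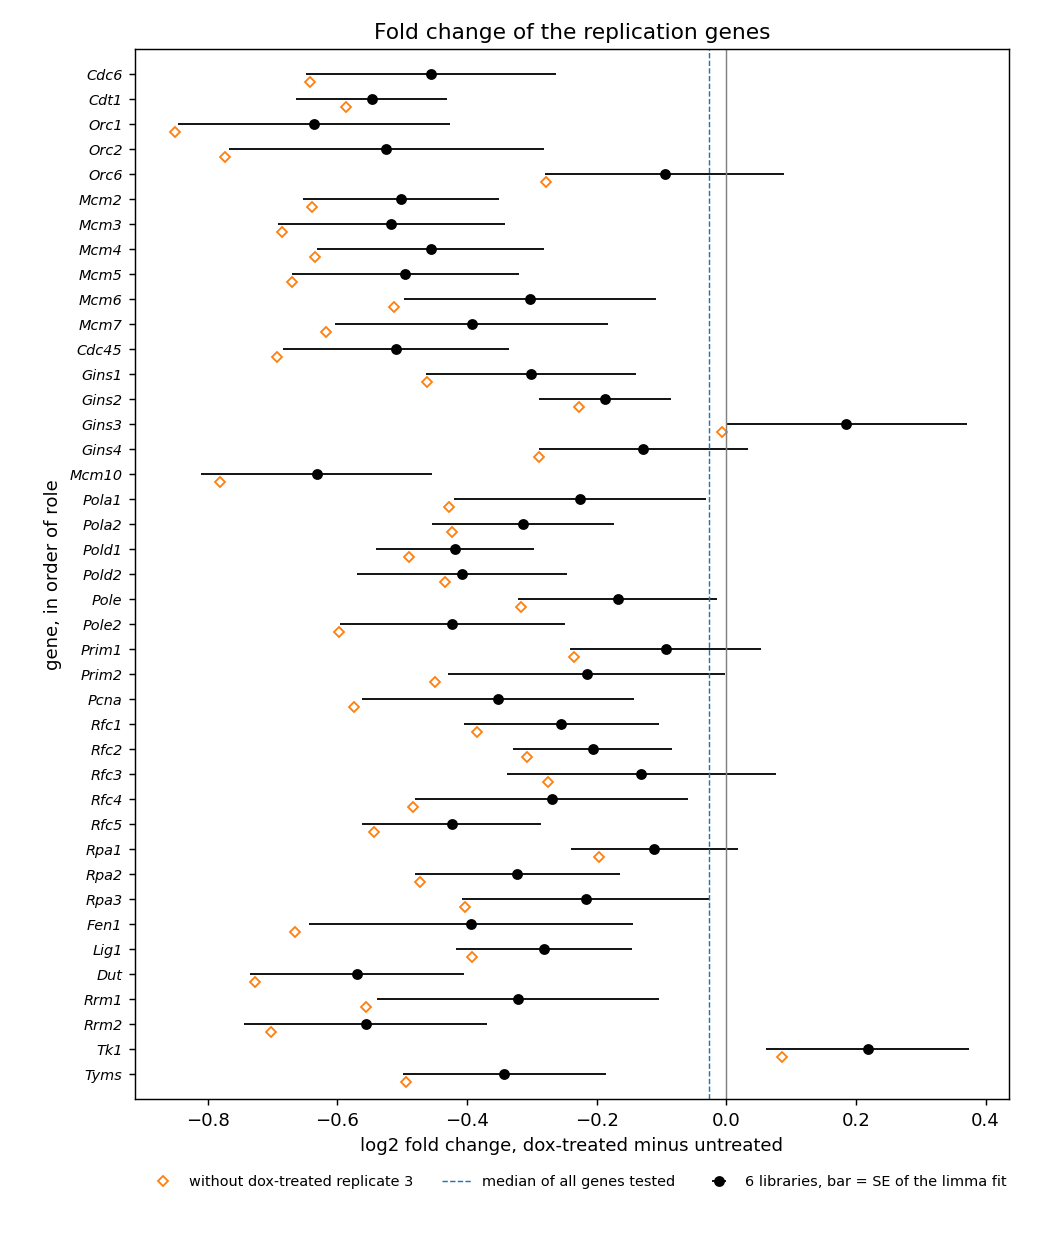
Log2 fold change of each member, dox-treated minus untreated, in order of role. Black points with bars are the limma estimates over 6 libraries with their SE, and orange diamonds are estimates without dox-treated replicate 3. The diamonds lie left of the points for all members, and the blue dashed line marks the median of all genes tested, -0.03.

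The members together held 0.724% of the reads in dox-treated replicate 1 (95% Wilson interval 0.720% to 0.729%), 0.707% in replicate 2 (0.702% to 0.711%) and 0.911% in replicate 3 (0.906% to 0.915%). In the untreated libraries they held 0.932%, 0.969% and 0.886%, with intervals from 0.927% to 0.937%, 0.964% to 0.974% and 0.881% to 0.892%. The intervals cover counting error within a library only, and they treat reads as independent. PCR copies of a molecule are counted as separate reads, so the intervals are if anything too narrow. Dox-treated replicates 1 and 2 had the lowest shares, and dox-treated replicate 3 lay between untreated replicates 3 and 1. The 33 genes of mitosis held 0.431%, 0.433% and 0.555% of the reads with dox and 0.546%, 0.546% and 0.511% without. Dox-treated replicates 1 and 2 were again the lowest, but dox-treated replicate 3 was above all untreated libraries.

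**Figure D4:**
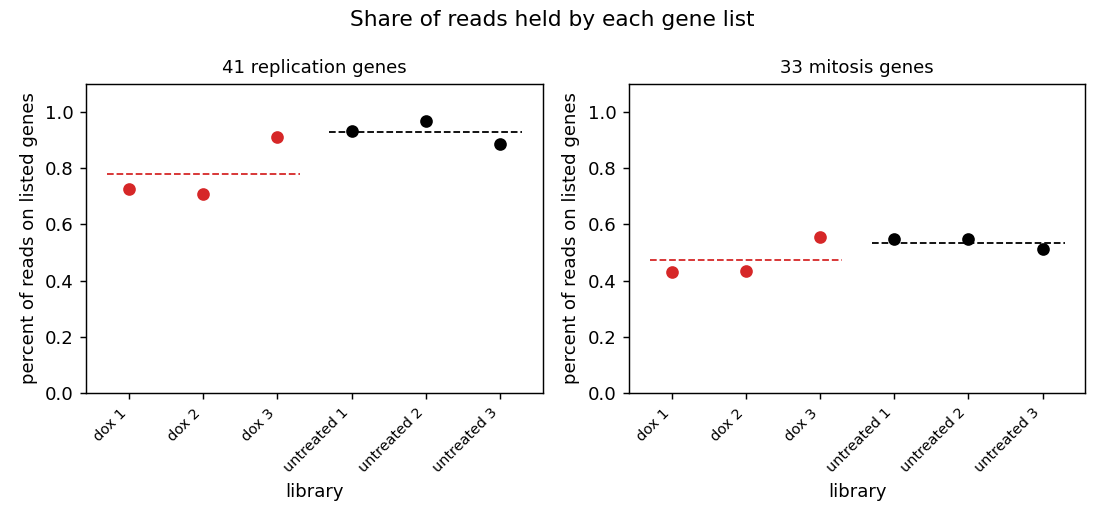
Share of each library's reads held by the 41 members (left) and by 33 genes of mitosis (right), in percent of reads on listed genes. Points are libraries, dashed lines are group means, and 95% Wilson intervals, drawn at left, are smaller than the points. The first 2 dox-treated libraries are lowest in both panels.

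A further 5 lists of genes that act in replication or S phase were examined, with 116 genes tested. Their median log2 fold change was -0.26 (-0.40 without dox-treated replicate 3). A lower mean with dox was seen in 93 of the 116, against 52.7% of all genes. In limma 4 (3.45%) were lower and 1 (0.862%) higher at an adjusted p under 0.05, against 3.18% and 4.59% of all genes, so the share of lower genes was that of all genes. As with the members, these calls depended on the libraries. Without dox-treated replicate 3 there were 52 lower and 4 higher, against 14.0% and 14.9% of all genes. Without any other single library there were 0, where 1.12% to 2.23% of all genes passed in either direction. Among 27 other replisome genes the median was -0.20 (-0.38 with 12 lower without dox-treated replicate 3) and none passed, the smallest p belonging to *Dna2*, a nuclease of Okazaki fragments, with a log2 fold change of -0.65 (SE 0.14, adjusted p = 0.051, limma), and to *Recql4*, a helicase that works with MCM10, at -0.63 (SE 0.15, adjusted p = 0.060, limma). At an unadjusted p under 0.05, 7 of these were lower and 1 higher, against 13.6% and 15.6% of all genes. Among 18 genes of the fork checkpoint the median was -0.31 (-0.43 with 10 lower without dox-treated replicate 3) and 0 passed. Of these, 6 were lower at an unadjusted p under 0.05 (13.6% of all genes), led by *Rad1* of the checkpoint clamp and the helicase *Blm*. Among 18 genes of chromatin at replication the median was also -0.31 (-0.43 with 9 lower without dox-treated replicate 3) and 0 passed. Of these, 5 were lower at an unadjusted p under 0.05 (13.6% of all genes), led by *Uhrf1*, which brings DNA methylation to new strands, and *Hmgb2*.

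Among 35 other genes of nucleotide metabolism, with a median of -0.31, 1 passed in each direction (3.18% of all genes lower and 4.59% higher). The median was -0.42, with 14 lower and 3 higher, without dox-treated replicate 3 (14.0% and 14.9% of all genes). *Dctd*, which makes dUMP from dCMP for thymidylate synthesis, was at 34.1, 32.4 and 34.6 CPM with dox and at 47.7, 60.6 and 52.9 CPM without, a log2 fold change of -0.67 (SE 0.12, adjusted p = 0.035, limma). *Tk2*, the thymidine kinase of mitochondria, was at 38.6, 44.6 and 33.5 CPM with dox and at 25.2, 22.1 and 24.5 CPM without, a log2 fold change of 0.69 (SE 0.14, adjusted p = 0.042, limma). For both, dox-treated replicate 3 sided with its own group. Among 18 genes of the E2F and pocket protein families the median was -0.12, and 3 fell (3.18% of all genes). The median was -0.23 with 7 lower without dox-treated replicate 3, and without dox-treated replicate 1 or 2 it was -0.029 and -0.035 with 0 lower. Scaling by summed reads gave a median of -0.011. None rose at an adjusted p under 0.05 in limma. At an unadjusted p under 0.05, 4 were lower and 3 higher, against 13.6% and 15.6% of all genes, so the share of higher genes was near theirs. With array quality weights 6 were lower and 5 higher, against 21.5% and 20.8% of all genes. With a mean-variance trend 3 were lower and 1 higher. *E2f6* and *E2f8*, repressors that act without pocket proteins, and *E2f4*, which represses with them, were the 3 that fell in the main fit. *E2f6* was at 41.8, 39.7 and 57.2 CPM with dox and at 86.8, 86.1 and 74.6 CPM without. *E2f4* was at 190, 201 and 225 CPM with dox and at 287, 390 and 330 CPM without. *E2f8* was at 117, 106 and 114 CPM with dox and at 151, 153 and 155 CPM without. Their log2 fold changes were -0.85 (SE 0.17), -0.70 (SE 0.15) and -0.45 (SE 0.10), with adjusted p of 0.041, 0.047 and 0.047 in limma. The groups did not overlap for any of them. For *Dctd*, *Tk2* and these 3 E2F genes, adjusted p in limma were 0.0089 to 0.027 without dox-treated replicate 3. They were 0.071 to 0.18 without any other single library. Scaling by summed reads put *E2f4*, *E2f8* and *Tk2* short of the threshold, with adjusted p of 0.053, 0.085 and 0.050 in limma, and quantile normalization did so for *E2f8* (adjusted p = 0.083, limma).

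The 33 genes of mitosis, which act after replication, had a median log2 fold change of -0.33 (-0.51 without dox-treated replicate 3), beside -0.32 (-0.49) for the members. At an adjusted p under 0.05 in limma 0 passed. At an unadjusted p under 0.05 there were 6 lower and 1 higher, against 13.6% and 15.6% of all genes. The share of lower genes was thus not far above that of all genes. The smallest p belonged to *Kif23*, a kinesin of cytokinesis, at -0.56 (SE 0.12, adjusted p = 0.051, limma), and to *Cenpa*, the centromeric histone, at 0.50 (SE 0.11, adjusted p = 0.053, limma). Without dox-treated replicate 3, 25 of the 33 were lower and 1 higher, beside 29 of the 41 members lower and 0 higher, against 14.0% lower and 14.9% higher among all genes. Without any other single library 0 were lower. The difference between the lists was not tested.

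**Figure D5:**
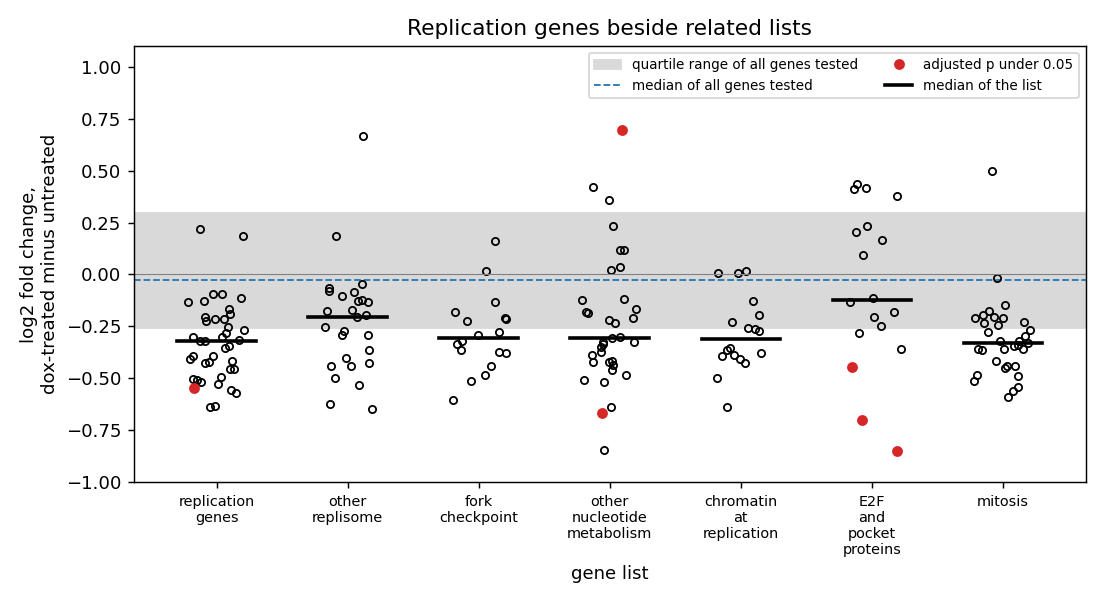
Log2 fold change, dox-treated minus untreated, of each gene (circles) in the members, the 5 related lists and the mitosis list, with the median of each list as a black bar. Filled red circles passed the limma test. The grey band spans the quartiles and the dashed line the median of all genes tested, and the lists other than the E2F list have medians between -0.33 and -0.20.

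Markers of other cells changed between the groups and within the dox-treated group. Summed levels of the 21 granulocyte and monocyte markers were 645 to 1019 CPM with dox and 2716 to 6207 CPM without, and 14 of the 21 were lower in limma (3.18% of all genes), among them *Mpo*, *Elane* and *Prtn3*, the most abundant. There were 15 lower and 1 higher without dox-treated replicate 3 (14.0% and 14.9% of all genes), and 2 to 9 lower without any other single library. Summed levels of the megakaryocyte markers were 989, 993 and 493 CPM with dox and 240 to 356 CPM without. In limma 5 of 19 were higher and 1 lower, against 4.59% and 3.18% of all genes. Without dox-treated replicate 3 there were 9 higher and 2 lower, against 14.9% and 14.0% of all genes. Without any other single library 1 or 2 were higher and 0 to 2 lower, with 1 higher and 2 lower without untreated replicate 2. In those fits 0.761% to 1.18% of all genes were higher and 0.298% to 1.04% lower. The most abundant of them, *Itga2b*, was at 319, 314 and 66.9 CPM with dox and 24.1 to 39.3 CPM without, and *F2r* was likewise higher in dox-treated replicates 1 and 2 (110 and 116 CPM) than in dox-treated replicate 3 (61.9 CPM) and in the untreated libraries. Summed erythroid markers were 7572, 7262 and 12260 CPM with dox and 10400 to 10890 CPM without. At an unadjusted p under 0.05, 7 of 23 were lower and 4 higher, against 13.6% and 15.6% of all genes, so the share of higher genes was near theirs. At the adjusted threshold 4 were lower and 0 higher, against 3.18% and 4.59%. That threshold gave 14 lower and 1 higher without dox-treated replicate 3 (14.0% and 14.9% of all genes). It gave 1 higher without dox-treated replicate 1 and 0 in either direction without any other single library. *Car2* and *Car1*, abundant erythroid genes, were lowest in dox-treated replicates 1 and 2 and highest in dox-treated replicate 3, while *Aqp1* was higher in all dox-treated libraries. Of 8 mast cell markers 3 were higher and 0 lower in limma, against 4.59% and 3.18% of all genes. There were 4 higher without dox-treated replicate 3 (14.9% of all genes), and 1 without any other single library. At an unadjusted p under 0.05, 5 were higher and 0 lower, against 15.6% and 13.6% of all genes. Their summed levels were 684 to 862 CPM with dox and 488 to 717 CPM without. That list shares *Kit* and *Gata2* with MEPs, and *Il1rl1* was between 82.6 and 119 CPM. Of 10 lymphoid markers 0 passed in either direction, at adjusted and at unadjusted p under 0.05. They summed to 22.8 to 93.5 CPM with dox and 24.5 to 32.6 CPM without, led by *Dntt*, *Cd79b* and *Lck*. Dox-treated replicates 1 and 2, which had the fewest reads on replication genes, thus had the most megakaryocyte and the least erythroid marker RNA of the 6 libraries. The other libraries did not follow that order, and the part of this in the members' values was not tested.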

How the data were processed

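The authors trimmed adapters with Cutadapt, used RSEM with Ensembl transcripts of NCBIM37 for quantification and limma for normalization. The deposited values are log2 CPM with 0.5 reads added, for 12101 genes in 6 libraries, and replicates were not pooled. The use of strand in counting and the filter on low genes are not given in the sources used here. Reads were recovered from the values, and 100% came out whole within 1e-06 reads.

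The 41 members and all other lists were chosen with earlier results of these data known. Symbols were matched to gene identifiers through current gene symbols, then through the names in the NCBIM37 annotation, and last through synonyms. Groups were taken from the labels. Dox-treated and untreated libraries were compared with limma 3.58.1 (lmFit and eBayes, R 4.3.3) on the deposited log2 values of 12088 genes, those that reached 1 CPM in 3 or more libraries. Benjamini-Hochberg adjustment covered all of these, and the threshold was 0.05. The 0.5 added reads enter every log2 fold change. Nothing in the sources says that replicates came from separate animals, so p-values measure the spread between these libraries only. Groups of 3 are too small for a test of outlying samples.

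Named genes were all 41 members. From each of the 5 related lists and mitosis they were up to 3 genes past the threshold with the smallest adjusted p, or, where none passed, the 2 with the smallest p. From each marker list they were the 3 with the highest mean CPM, and *Nanog* was a check. Some marker genes are not reported here. Genes that overlap a member and *Pcna-ps2* were added after their values were seen.

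Alternatives changed the added reads, filter, variance model, weights, block, scaling, threshold and libraries. The fit was tested on simulated data. Tables and figures used Python 3.11.15, pandas 2.3.3, numpy 2.4.6, scipy 1.17.1 and matplotlib 3.10.9.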

Additional observations from a re-analysis of the deposited data

How the results depend on the processing

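No member passed as higher with dox under any alternative run. The count of members lower with dox, 1 as reported, was 1 with 2 reads added, with no filter, with a mean of at least 5 CPM and with a replicate block plus voom precision weights. It was 5 with a mean-variance trend (6.18% of all genes lower), 2 with voom precision weights (4.72%, a share close to that of the members), 32 with array quality weights (21.5%), 0 with quantile normalization (4.44%), 0 with scaling by summed reads (2.37%) and 5 at an adjusted p under 0.1 (7.77%). Leaving out 1 library gave 0 to 29 (0.298% to 14.0%). The count over the 5 related lists, 5 as reported, was 10 with a mean of at least 5 CPM (11% of all genes in either direction), 23 with a trend (13.7%), 16 with voom precision weights (9.80%), 76 with array quality weights (42.3%), 8 with quantile normalization (9.80%), 24 at an adjusted p under 0.1 (18.3%), and 0 to 56 with 1 library left out (1.12% to 28.9%). The members' median log2 fold change stayed between -0.49 (without dox-treated replicate 3) and -0.21 (scaling by summed reads), and was -0.46 with array quality weights and -0.23 without dox-treated replicate 2. The cause of these shifts, including those in the counts without dox-treated replicate 3, was not tested.

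With the replicate block the counts were 0 members and 0 genes of the related lists, and over all genes 29 lower and 53 higher in place of 384 and 555. The sources used here do not say whether the replicate numbers pair the libraries. After removing group means, libraries that share a number correlated at 0.0184, -0.121 and -0.299 over genes. Not every library correlated best with its own number. Deviations from the mean of so few libraries offset one another, so these correlations cannot decide whether the libraries were paired.

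Signs changed for *Orc6* (0.015 with summed reads, and -0.28 to 0.021 with 1 library left out), *Prim1* (0.017 with summed reads), *Rpa1* (0.036 with quantile normalization), *Rfc3* (-0.29 to 0.0012 with 1 library left out) and *Gins3* (-0.0069 to 0.29 with 1 library left out). Of 656 comparisons of a member with an alternative, 578 kept direction and side of the threshold. In 64 a member came past the threshold, in 8 *Cdt1* fell short of it, and 6 changed sign. Members had 231 reads or more per library, and for those with few reads or a narrow untreated spread, such as *Gins3* and *Cdc45*, counting error was of the size of that spread or above it.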

Other observations

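In all, 12 of the members share exon bases with another gene in the NCBIM37 annotation, 5 of them over 10% of their own, and the levels of those neighbours are given here because counting without strand would mix them. *Gse1*, which overlaps *Gins2*, was at 207, 191 and 124 CPM with dox and between 162 and 199 CPM without. *Eif4a2*, which overlaps *Rfc4* over 12.6% of its exon bases, was at 525 to 663 CPM with dox and 537 to 627 CPM without. *Nif3l1*, which overlaps *Orc2* over 12%, was at 33.5 to 40.1 CPM with dox and 37.9 to 48.5 CPM without. *Wsb2*, which overlaps *Rfc5* over 10.7%, was at 39.4 to 46.9 CPM with dox and 38.0 to 48.1 CPM without. *Afmid*, which overlaps 1.60% of *Tk1*, was at 8.21, 11.6 and 7.54 CPM with dox and at 4.70, 4.62 and 6.32 CPM without.

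Gene by gene, the replication genes had no single lowest dox-treated library. Dox-treated replicate 2 was the lowest of the 6 libraries in 25 members and dox-treated replicate 1 in 14. For *Tk1* untreated replicate 1 and for *Gins3* untreated replicate 3 was the lowest. The highest library was untreated replicate 2 in 21 members and dox-treated replicate 3 in 14.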
